A study of Mus musculus with 21 samples.

Results

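*Syne2*, *D1Ertd622e* and *Gramd3* are 3 of the 55421 genes in the QuantSeq table, and they were chosen by their levels: each was higher in the libraries labelled sgZbtb1. QuantSeq reads each mRNA near its 3′ end, so that a long and a short transcript give similar numbers of reads. The cells were *Ebf1*-deficient LPs, a single mouse lymphoid progenitor line of the C57BL6/J strain, grown on OP9 stromal cells with SCF, IL-7 and Flt3L without Notch stimulation. All groups, sgControl included, carried the *Ebf1* deficiency and Cas9-GFP. A retroviral vector brought in 2 pooled sgRNAs per target gene, which was *Zbtb1*, *Lmo2*, *Cbfa2t3* or *Cbfa2t2*, while sgControl was aimed at luciferase, and cells positive for GFP and for the hNGFR marker of the sgRNA vector were sorted 5 days later. Each of the 5 groups had 3 libraries, 15 in all, and since they came from one line, the spread between them is that of repeat experiments and not of animals. The positions bound by Zbtb1 and Cbfa2t3 came from ChIP-seq of the same line without sgRNA, as 1 peak list per factor.

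*Syne2* encodes nesprin-2, a giant protein of the outer nuclear membrane. Nesprins reach through their KASH domain to SUN proteins of the inner nuclear membrane, and together they form the LINC complex, which ties the nuclear lamina to actin and to microtubule motors and lets the cytoskeleton pull on the nucleus. *D1Ertd622e*, listed by RefSeq under the symbol *Macir*, encodes a small protein that binds UNC119, a carrier that moves lipid-modified proteins to membranes and to the cilium. *Gramd3*, for which RefSeq gives *Gramd2b* as a synonym, encodes a protein with a GRAM domain, a fold that binds membrane lipids, and it is related to the *Gramd1* genes, whose products carry cholesterol at contacts between the endoplasmic reticulum and the plasma membrane.

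The genes lie on different chromosomes. On GRCm38 (mm10), with GENCODE vM21, *Syne2* (ENSMUSG00000063450) occupies chr12:75818134-76110926 on the plus strand and *D1Ertd622e* (ENSMUSG00000044768) chr1:97606318-97662074 on the minus strand. The only annotated gene that overlaps *Syne2* is the microRNA gene *Mir5101*, which was too low to be tested, and no gene overlaps *D1Ertd622e*. The letters below are the 200 bases upstream of each annotated start, in the direction of the gene. They also give the 200 bases at the centre of 2 Zbtb1 peaks inside the genes, on the plus strand. A Zbtb1 peak covers part of the *D1Ertd622e* promoter window, and none touches the *Syne2* promoter window. Capitals mark the E-box CAGNTG, the Runx core TGTGGT and TGGTGGT, a part of the Zbtb7c motif, on either strand. The last pair can share letters.
Syne2 promoter, chr12:75817934-75818133, plus strand: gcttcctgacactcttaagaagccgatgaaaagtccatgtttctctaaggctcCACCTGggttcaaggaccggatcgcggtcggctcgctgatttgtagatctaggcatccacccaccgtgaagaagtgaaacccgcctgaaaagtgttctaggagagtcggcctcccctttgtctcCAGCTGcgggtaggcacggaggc
Syne2 intron 1, Zbtb1 peak, chr12:75837603-75837802: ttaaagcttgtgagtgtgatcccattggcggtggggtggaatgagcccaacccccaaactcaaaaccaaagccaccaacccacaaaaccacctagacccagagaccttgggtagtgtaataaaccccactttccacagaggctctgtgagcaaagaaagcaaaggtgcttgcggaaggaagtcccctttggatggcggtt
D1Ertd622e promoter, chr1:97662075-97662274, minus strand: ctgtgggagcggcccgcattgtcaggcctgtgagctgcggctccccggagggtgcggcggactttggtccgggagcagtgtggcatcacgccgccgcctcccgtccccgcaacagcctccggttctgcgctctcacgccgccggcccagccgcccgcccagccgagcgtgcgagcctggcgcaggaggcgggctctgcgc
D1Ertd622e intron 1, Zbtb1 peak, chr1:97659389-97659588: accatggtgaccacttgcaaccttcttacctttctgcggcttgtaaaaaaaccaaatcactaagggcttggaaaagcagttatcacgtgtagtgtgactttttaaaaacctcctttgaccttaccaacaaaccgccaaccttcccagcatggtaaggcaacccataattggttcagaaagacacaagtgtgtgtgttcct

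The *Syne2* promoter window held 2 E-boxes, and 36.0% of the 200-base windows upstream of all 21938 protein-coding genes held at least 1. None of the other windows printed held any of the 3 motifs. Of all Zbtb1 peak windows of this length, 41.3% held the Runx core, 15.8% held TGGTGGT and 39.4% held an E-box, against 10.5%, 2.8% and 36.0% of the promoter windows. The *D1Ertd622e* promoter window was 75.5% G and C, where the median promoter window had 55.0%.

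*Zbtb1* mRNA was not lower in the libraries labelled sgZbtb1. Its values were 94.4, 113.3 and 109.0 TPM there, 62.7, 66.6 and 55.7 TPM in sgControl, and between 50.1 and 83.1 TPM in the other 9 libraries. The other targeted genes were not lower beyond their spread either: *Cbfa2t3* had 350 ± 12.9 TPM in sgCbfa2t3 and 190 ± 18.7 TPM in sgControl, *Cbfa2t2* 21.9 ± 4.85 TPM in sgCbfa2t2 and 11.8 ± 0.698 TPM in sgControl, and *Lmo2* 16.3 ± 7.99 TPM in sgLmo2 and 18.4 ± 4.17 TPM in sgControl, each the mean ± SD of 3 libraries. A read near the 3′ end does not read the site that an sgRNA cuts, so these levels do not check the labels, and the libraries are called by their labels throughout. The study immunoblotted Lmo2, Zbtb1 and Cbfa2t3, lists no blot of Cbfa2t2, and reported specific loss of the targeted proteins. Those blots are not analysed here. TPM is the name the authors gave to these values, which are reads scaled to the same total in each library. The libraries held 1705416 to 2095447 reads, and 3 reads, taken as the floor, were worth 1.43 to 1.76 TPM, which covers counting error only. The sum of 6 T lineage markers was 46.2 to 63.7 TPM in sgZbtb1 and 98.7 to 113 TPM in sgControl, with *Cd3e* at 0 in both, *Cd3g* at 0 in sgZbtb1 and *Cd3d* at 0 in sgControl, and that of 8 lymphoid progenitor markers, all detected in every group, 1723 to 1785 and 1704 to 1813 TPM. Markers of OP9 stroma summed to 2.95 to 6.14 TPM in sgZbtb1, with *Col3a1*, *Dcn*, *Lum*, *Cxcl12* and *Fbn1* of 10 at 0, and to 4.63 to 9.97 TPM in sgControl. Myeloid markers summed to 8.61 to 22.9 and 15 to 17 TPM, with *Elane* and *Cd14* of 6 at 0 in both groups, and B lineage markers to 0.558 to 6.87 and 5.79 to 9.38 TPM, with *Cd79a* of 5 at 0 in both. The part of these differences in the levels of *Syne2*, *D1Ertd622e* and *Gramd3* was not tested, and in bulk RNA fewer cells of a type and less RNA per cell cannot be told apart.

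*Syne2* was near the floor everywhere except in sgZbtb1. Its 3 sgZbtb1 libraries gave 12.8, 15.8 and 15.7 TPM, from 23, 33 and 32 reads. The sgControl libraries gave 3.48, 0 and 0.586 TPM, from 6, 0 and 1 reads. The lowest sgZbtb1 library thus stood above the highest of the other 12 libraries, which was sgControl replicate 1. The sgLmo2 libraries gave 3.39, 1.47 and 0.547 TPM, the sgCbfa2t2 libraries 0.532, 0.954 and 0 TPM, and the sgCbfa2t3 libraries 1.61, 0 and 0 TPM. Of these 12 libraries, 10 had 3 reads or fewer and 4 had none. The mean was 14.8 ± 1.67 TPM in sgZbtb1 and 1.36 ± 1.87 TPM in sgControl (± SD of 3 libraries). The ratio of the means, 10.9, rests on sgControl replicate 1, without which it was 50.4, and was 7.26 without replicate 2. The log2 fold change on the log2(TPM + 1) scale was 3.03 (SE 0.60).

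*D1Ertd622e* had the same kind of pattern with a wider spread. Its sgZbtb1 libraries gave 15.6, 14.8 and 6.87 TPM, from 28, 31 and 14 reads, so that replicate 3 was well below the other two. The sgControl libraries gave 0, 2.31 and 0.586 TPM, and the sgLmo2 libraries 0.565, 0.488 and 2.74 TPM. The sgCbfa2t2 libraries gave 0, 3.34 and 1.93 TPM, and the sgCbfa2t3 libraries 0.536, 1.71 and 0 TPM. Here too the groups did not overlap: the highest of the 12 other libraries, sgCbfa2t2 replicate 2, was below the lowest sgZbtb1 library, and 8 of the 12 had 3 reads or fewer. The mean was 12.4 ± 4.84 TPM in sgZbtb1 and 0.967 ± 1.2 TPM in sgControl (± SD of 3 libraries). The ratio of the means, 12.9, rests on sgControl replicate 2, without which it was 42.5, and was 8.58 without replicate 1. The log2 fold change was 2.87 (SE 0.61). The sgControl means of *Syne2* and *D1Ertd622e* lay under the floor of 3 reads, so neither ratio is an estimate of a fold.

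*Gramd3* differed from both, since it was detected in every library. Its sgZbtb1 libraries gave 14.0, 12.4 and 11.3 TPM, from 25, 26 and 23 reads, and its sgControl libraries 4.64, 3.47 and 2.35 TPM, from 8, 6 and 4 reads. These groups did not overlap. The sgLmo2 libraries gave 17.0, 3.42 and 6.03 TPM, so that sgLmo2 replicate 1 was above every sgZbtb1 library while the other two were far below. The sgCbfa2t2 libraries gave 9.58, 5.25 and 5.80 TPM and the sgCbfa2t3 libraries 9.11, 4.57 and 3.32 TPM, all below the lowest sgZbtb1 library. The mean was 12.6 ± 1.34 TPM in sgZbtb1 and 3.49 ± 1.15 TPM in sgControl (± SD of 3 libraries), a ratio of 3.6, and the log2 fold change was 1.62 (SE 0.45). With the pooled 9 sgLmo2, sgCbfa2t2 and sgCbfa2t3 libraries in place of sgControl it was 0.88.

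**Figure D1:**
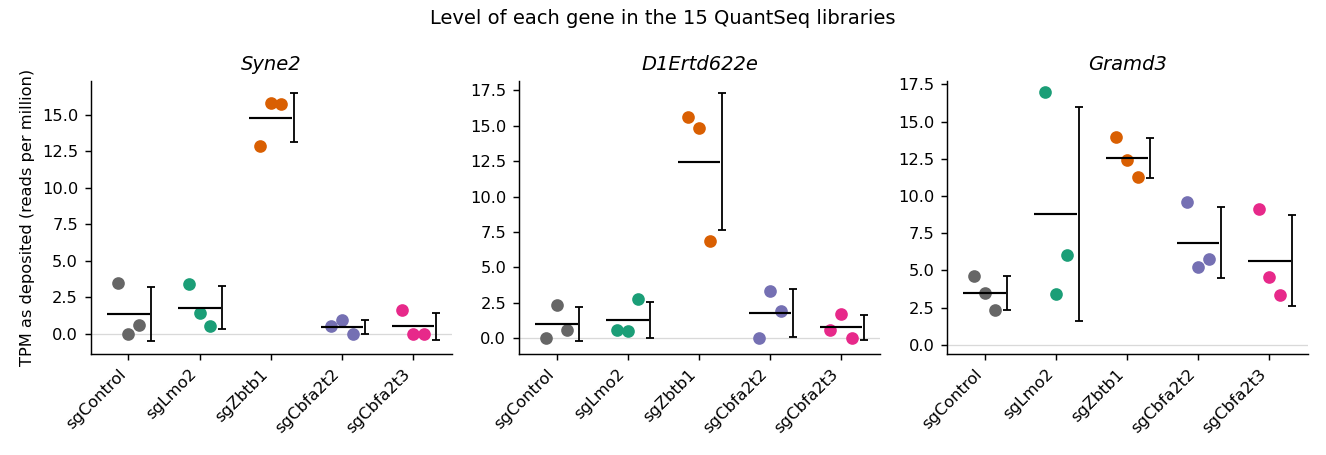
Level of *Syne2*, *D1Ertd622e* and *Gramd3* in each of the 15 libraries, in TPM as deposited. Points are libraries, horizontal lines are group means and bars to their right are ± 1 SD (n = 3). The sgZbtb1 points of *Syne2* (12.8 to 15.8 TPM) and *D1Ertd622e* (6.87 to 15.6 TPM) stand above all other libraries, and 1 sgLmo2 point of *Gramd3* (17.0 TPM) lies above its sgZbtb1 points.

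The genes were chosen on the sgZbtb1 values, so no test of the difference between sgZbtb1 and sgControl is given. Of the 11554 genes with a mean above 1 TPM, limma (Benjamini-Hochberg adjusted p under 0.05) called 4.79% in either direction and 1.85% higher. All 3 sgZbtb1 libraries were above all 3 sgControl libraries in 10.1% of the genes, and above all 12 others, as for *Syne2* and *D1Ertd622e*, in 1.63%.

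Outside sgZbtb1, the order of the group means was not the same for the 3 genes. For *Syne2* the means ran from 1.8 TPM in sgLmo2 through 1.36 TPM in sgControl and 0.536 TPM in sgCbfa2t3 to 0.495 TPM in sgCbfa2t2. For *D1Ertd622e* they ran from 1.76 TPM in sgCbfa2t2 through 1.26 TPM in sgLmo2 and 0.967 TPM in sgControl to 0.749 TPM in sgCbfa2t3. Neighbours in both orders differed by less than 1 SD of either group. For *Gramd3* the order was 8.8 ± 7.18 TPM in sgLmo2, 6.87 ± 2.36 TPM in sgCbfa2t2, 5.67 ± 3.05 TPM in sgCbfa2t3 and 3.49 ± 1.15 TPM in sgControl (SD, n = 3 each), and sgZbtb1 and sgLmo2, next to each other at the top, overlapped.

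The differences between the sgLmo2, sgCbfa2t2, sgCbfa2t3 and sgControl libraries hold no sgZbtb1 column and were tested. The genes were chosen as high in sgZbtb1 without a stated comparator, so any of these 12 libraries may have taken part in the choice as the lower side. None of the 18 differences was called by limma or edgeR, nor were the 7 for which DESeq2 gave an adjusted p, and 1 had an unadjusted p under 0.05 in limma, beside 5.65% to 10.6% of all genes in the 6 comparisons. In the compared groups the means of *Syne2* and *D1Ertd622e* lay around or under the floor, so their fitted values depend on the added 1 TPM and are no estimate of a fold. In sgLmo2 the log2 fold change against sgControl was 0.41 for *Syne2* (95% interval −0.78 to 1.60, adjusted p = 0.968), 0.24 for *D1Ertd622e* (−0.97 to 1.45, adjusted p = 0.983) and 0.91 for *Gramd3* (0.01 to 1.80, adjusted p = 0.864, unadjusted p = 0.0467). The last value rested on sgLmo2 replicate 1, without which it was 0.34 in the same test. Of all genes, 0.0173% were called in this comparison.

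In sgCbfa2t2, where 0.147% of the genes were called, the log2 fold change was −0.42 for *Syne2* (−1.61 to 0.78), 0.43 for *D1Ertd622e* (−0.79 to 1.64) and 0.80 for *Gramd3* (−0.09 to 1.70), with adjusted p = 0.892, 0.891 and 0.601 in limma. All 3 sgCbfa2t2 libraries of *Gramd3* were above all 3 sgControl libraries, as in 6.88% of all genes. In sgCbfa2t3, where 0.537% were called, the values were −0.48 for *Syne2* (−1.67 to 0.71), −0.11 for *D1Ertd622e* (−1.32 to 1.1) and 0.51 for *Gramd3* (−0.39 to 1.40), with adjusted p = 0.836, 0.971 and 0.749 in limma. The *Gramd3* value was 0.16 without sgCbfa2t3 replicate 1 and 0.77 without sgCbfa2t3 replicate 3.

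The remaining 3 comparisons set sgLmo2, sgCbfa2t2 and sgCbfa2t3 against each other. The *Syne2* differences on the log2 scale were 0.83 for sgLmo2 against sgCbfa2t2 (−0.36 to 2.02) and 0.90 for sgLmo2 against sgCbfa2t3 (−0.30 to 2.09), with adjusted p = 0.841 and 0.666 in limma. Between sgCbfa2t2 and sgCbfa2t3 the *Syne2* difference was 0.07, from 3 reads in each group. The *D1Ertd622e* differences were −0.18 for sgLmo2 against sgCbfa2t2, 0.35 for sgLmo2 against sgCbfa2t3 and 0.54 for sgCbfa2t2 against sgCbfa2t3, and those of *Gramd3* were 0.10, 0.40 and 0.29. Without sgLmo2 replicate 1 the *Gramd3* differences of sgLmo2 turned sign, to −0.46 against sgCbfa2t2 and −0.16 against sgCbfa2t3. None of the 9 differences was called, while 0.234%, 0.736% and 0.0779% of all genes were called in the 3 comparisons. With 3 libraries a group and a few reads each, intervals for *Syne2* and *D1Ertd622e* were more than 1 log2 unit to either side, so smaller differences were not detectable at this depth.

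**Figure D2:**
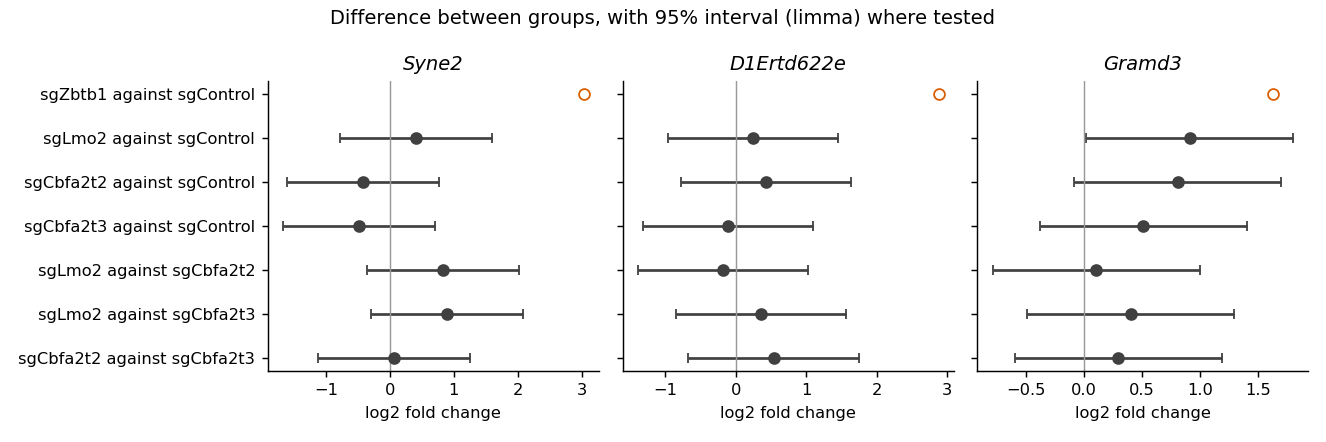
Log2 fold change of each gene, on the log2(TPM + 1) scale, in 7 comparisons (first group minus second) from limma. Open orange circles, drawn without an interval, are the sgZbtb1 comparison, on whose values the genes were chosen (3.03, 2.87 and 1.62), and filled circles are the comparisons of the other groups with their 95% intervals, none of which was called.

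The relatives of these genes were read from lists of their families and partners. Of the LINC complex and nuclear envelope list (21 genes besides *Syne2*, 17 tested), none was called higher and 1 was called lower in sgZbtb1. Of all 11554 genes, 4.79% were called in either direction, 214 higher and 340 lower. The median log2 fold change of the list was −0.10, against −0.03 over all genes tested. The gene that fell was *Syne1*, which encodes nesprin-1, the closest relative of nesprin-2. Its sgZbtb1 libraries gave 16.2, 13.4 and 12.8 TPM and its sgControl libraries 41.8, 37.6 and 38.1 TPM. *Syne1* fell by 1.42 on the log2 scale (SE 0.25, adjusted p = 8.04e-05 in limma), so that the 2 large nesprin genes differed from sgControl in opposite directions. *Syne3*, which encodes nesprin-3, a link to intermediate filaments, was at 52.2 ± 2.49 TPM in sgZbtb1 and 49.7 ± 4.81 TPM in sgControl (SD, n = 3 each, log2 fold change 0.07, adjusted p = 0.894 in limma).

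The SUN proteins, partners of the nesprins, and the lamins gave no call. *Sun1* had a log2 fold change of 0.12 (adjusted p = 0.873) and *Sun2* of −0.35 (adjusted p = 0.0942) in limma. *Lmna*, which encodes lamin A and C, had 0.34 (adjusted p = 0.0767), *Lmnb1*, for lamin B1, had 0.15 (adjusted p = 0.317), and *Emd*, for emerin, had 0.03 (adjusted p = 0.95) in the same test. *Lrmp*, another protein with a KASH-like tail, had −0.40 (adjusted p = 0.128). No gene of this list was called in sgLmo2, sgCbfa2t2 or sgCbfa2t3 by limma or edgeR, nor by DESeq2, which gave an adjusted p for 17, 7 and 9 of the 17 genes, while 0.0173%, 0.147% and 0.537% of all genes were called by limma. Of its 17 tested genes 1, 3 and 4 had an unadjusted p under 0.05 in limma, beside 5.65%, 9.56% and 10.6% of all genes. In sgZbtb1 the same count was 5 of the 17, beside 17.6% of all genes. *Syne1* had 23.1 ± 5.56 TPM in sgCbfa2t2 and 22.6 ± 7.31 TPM in sgCbfa2t3 (SD, n = 3 each), where limma gave −0.76 and −0.82 on the log2 scale with adjusted p = 0.268 and 0.144. *Syne2*, with 3 reads in each of these groups, had −0.42 and −0.48 (adjusted p = 0.892 and 0.836 in limma). Without sgControl replicate 1 these *Syne2* values turned sign, to 0.20 and 0.13.

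Among the GRAM domain genes, 3 of the 5 relatives of *Gramd3* were tested, and 1 was called lower in sgZbtb1. Of all 11554 genes, 340 were called lower and 4.79% were called in either direction. The median log2 fold change of the 3 relatives was −0.67, against −0.03 over all genes tested. Of the 3, 2 had an unadjusted p under 0.05 in limma, beside 17.6% of all genes. *Gramd1b*, whose product carries cholesterol, gave 16.8, 15.8 and 22.1 TPM in sgZbtb1 and 51.7, 37.6 and 44.6 TPM in sgControl. It fell by 1.25 on the log2 scale (SE 0.24, adjusted p = 0.000219 in limma). *Gramd4* had a log2 fold change of −0.67 (adjusted p = 0.141) and *Gramd1a* of −0.23 (adjusted p = 0.628) in the same test. In sgCbfa2t2 and sgCbfa2t3 *Gramd1b* had 23.1 ± 4.04 and 24.3 ± 2.18 TPM (SD, n = 3 each), and its log2 fold changes, −0.92 and −0.84, missed the threshold (adjusted p = 0.107 and 0.0864 in limma). Set against the pooled 9 sgLmo2, sgCbfa2t2 and sgCbfa2t3 libraries in place of sgControl, the sgZbtb1 value of *Gramd1b* was −0.53 and no longer called (adjusted p = 0.112 in limma), and *Syne1* was still called at −0.84 (adjusted p = 0.00665).

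Of the UNC119 cargo transport list (9 genes besides *D1Ertd622e*, 8 tested), none was called in any of the 4 comparisons with sgControl by limma or edgeR, nor by DESeq2, which gave an adjusted p for 8 in sgZbtb1 and sgLmo2, 0 in sgCbfa2t2 and 1 in sgCbfa2t3, and 2 of the 8 had an unadjusted p under 0.05 in sgZbtb1 in limma, beside 17.6% of all genes. Of all genes, limma called 4.79% in sgZbtb1, 0.0173% in sgLmo2, 0.147% in sgCbfa2t2 and 0.537% in sgCbfa2t3. The median log2 fold change of the list in sgZbtb1 was −0.37, against −0.03 over all genes tested. *Unc119*, the partner of the *D1Ertd622e* product, had 0.14 (adjusted p = 0.788) and its relative *Unc119b* −0.84 (adjusted p = 0.0845) in limma, the latter from 10.1, 8.13 and 12.3 TPM in sgZbtb1 against 21.5, 17.4 and 17.6 TPM in sgControl. *Arl3*, the small GTPase that releases cargo from UNC119, had 0.17 (adjusted p = 0.7) in the same test.

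**Figure D3:**
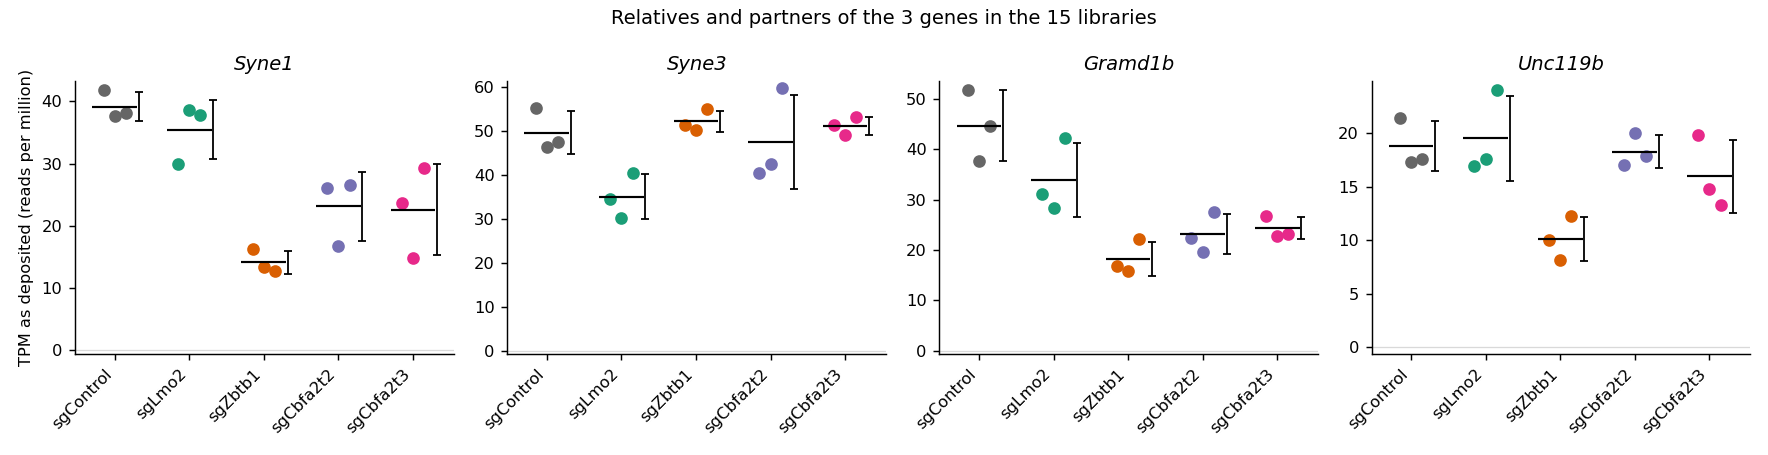
Levels of *Syne1*, *Syne3*, *Gramd1b* and *Unc119b* in each library, in TPM as deposited. Points are libraries, lines are means and bars are ± 1 SD (n = 3). *Syne1* (12.8 to 16.2 TPM) and *Gramd1b* (15.8 to 22.1 TPM) in sgZbtb1 were called lower than in sgControl, whereas *Syne3* was not called.

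*Syne2* lies close to the gene that the sgRNAs cut. Its end is 259.3 kb from the start of *Zbtb1*, which occupies chr12:76370266-76396950, and 5 protein-coding genes lie between them, of which *Mthfd1* and *Zbtb25* were tested. Within 500 kb of *Syne2*, 10 genes were tested and 1, *Zbtb1* itself, was called in sgZbtb1 (log2 fold change 0.77, SE 0.16, adjusted p = 0.00102 in limma). *Mthfd1*, a folate enzyme gene 144.4 kb from *Syne2*, had 77.7 ± 11.4 TPM in sgZbtb1 and 55.1 ± 4.1 TPM in sgControl (SD, n = 3 each). Its 3 sgZbtb1 libraries were above the 3 of sgControl, as in 10.1% of all genes, but its log2 fold change of 0.48 was not called (adjusted p = 0.0955 in limma). Set against the pooled 9 sgLmo2, sgCbfa2t2 and sgCbfa2t3 libraries instead, *Mthfd1* was called at 0.46 (adjusted p = 0.0458 in limma). *Zbtb25*, next to *Zbtb1*, had 0.00 (adjusted p = 0.996) and *Hspa2*, a heat shock protein gene on its other side, had 0.73 (adjusted p = 0.389) in the same test. On the far side of *Syne2*, *Sgpp1* had 0.02, *Wdr89* 0.76 and *Ppp2r5e* −0.15, none of them called (adjusted p = 0.99, 0.227 and 0.654 in limma). *Plekhg3*, *Gm25563* and *A430103D13Rik* had 0.58, 0.10 and −0.77, and none of these was called either. Of the 10 genes, 4 (*Zbtb1*, *Mthfd1*, *Wdr89* and *A430103D13Rik*) had an unadjusted p under 0.05 in limma, beside 17.6% of all genes.

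No neighbour of the other genes was called by limma, edgeR or DESeq2, and 0 had an unadjusted p under 0.05 in limma. The 4 genes tested within 500 kb of *D1Ertd622e* had log2 fold changes of −0.11 (*Ppip5k2*, an inositol phosphate kinase gene 44.0 kb away), −0.09 (*Gin1*), 0.10 (*Pam*) and −0.91 (*B230216N24Rik*). The 4 within 500 kb of *Gramd3* had 0.28 (*Aldh7a1*, 5.9 kb away), 0.20 (*Phax*), 0.15 (*Lmnb1*) and 0.26 (*C330018D20Rik*). Over the 3 loci, 1 of 18 genes was called, beside 4.79% of all genes tested.

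**Figure D4:**
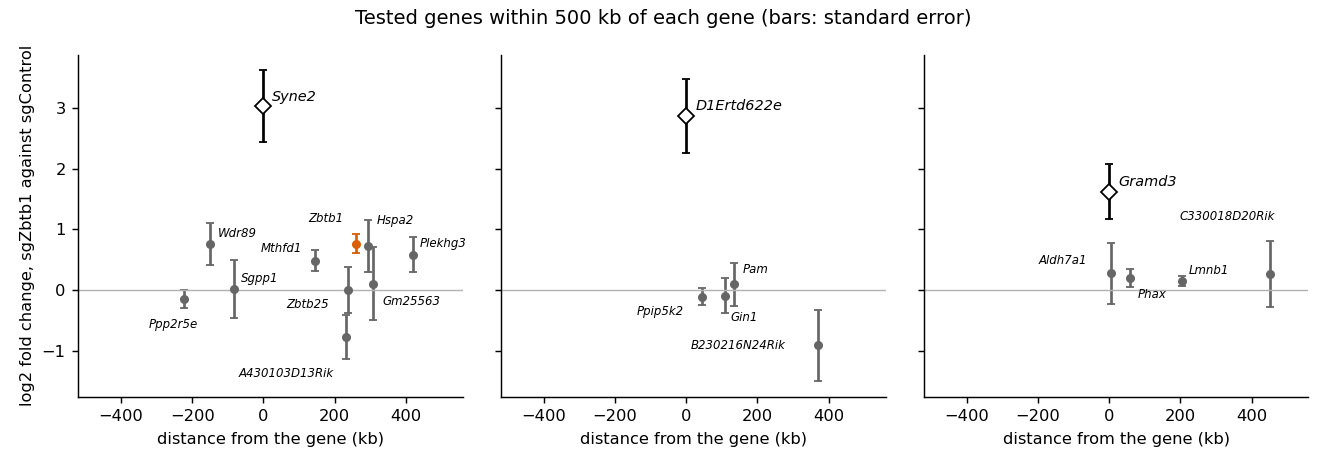
Log2 fold change in sgZbtb1 against sgControl of the tested genes within 500 kb of each gene, by distance in kb (negative toward lower coordinates), with bars of ± 1 SE. Diamonds mark *Syne2* (3.03), *D1Ertd622e* (2.87) and *Gramd3* (1.62), and the orange point is *Zbtb1* (0.77), the only neighbour called.

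The Zbtb1 list of 5898 peaks gave 3 peaks with 1 of these symbols as the nearest gene, 1 for each, and the Cbfa2t3 list of 6077 peaks gave 1. Of the 10167 protein-coding genes tested, 29.7% were named as nearest gene by a Zbtb1 peak and 22.7% by a Cbfa2t3 peak, and among the 211 called higher in sgZbtb1 the shares were 34.1% and 22.3%. Among the 295 called lower, both shares were 44.1%. The scores of the 3 Zbtb1 peaks stood at percentiles 7.1, 48.0 and 15.4 of the list. In *Syne2*, the peak at chr12:75837518-75837888 lies in intron 1 of 115, 19.4 kb from the start, with a score of 16.1, at percentile 7.1 of the list. No Zbtb1 peak touches the *Syne2* promoter window printed above, and the nearest Cbfa2t3 peak is 481.0 kb from the intron 1 peak. The Zbtb1 peak at the start of *Zbtb1* itself had a score of 258.6.

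*D1Ertd622e* was the gene with a Zbtb1 peak on its promoter. The peak at chr1:97661792-97662162, centred 41 bases from the listed start, had a score of 27.1 (percentile 48.0), and it covers 88 bases of the promoter window printed above as well as the first exon. A peak in intron 1 of 2, at chr1:97659304-97659674 with a score of 24.6, carries no symbol in the list but names a transcript of the gene as its nearest promoter. The nearest Cbfa2t3 peak is over 2 Mb away, at 2390.8 kb.

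*Gramd3* (ENSMUSG00000001700, chr18:56400337-56503792, plus strand) had peaks of both factors. By symbol, Zbtb1 had a peak in intron 2 of 13 with a score of 17.6 (percentile 15.4). Cbfa2t3 had a peak with a score of 89.6 (percentile 89.9), the highest score of any peak at these genes. The list places this Cbfa2t3 peak in intron 1, 37.2 kb from the start of the transcript it names. On GENCODE vM21 the peak overlaps 1 exon and lies 68979 bases from the start of the gene. These 2 peaks are 1151 bases apart and do not overlap. The 200-base window of this Cbfa2t3 peak held 5 E-boxes, where 83.2% of all Cbfa2t3 peak windows held at least 1, and the Zbtb1 window held none of the 3 motifs. By the nearest transcript, for peaks without a symbol, 2 more Zbtb1 peaks (scores 25.8 and 23.9) and 1 more Cbfa2t3 peak (score 33.7) lie in intron 1, between 9.1 and 12.7 kb from the start, and the Cbfa2t3 peak shares 356 bases with the first of these Zbtb1 peaks. The window of the second held 2 Runx cores and 2 copies of TGGTGGT. Another Cbfa2t3 peak with this nearest transcript, with a score of 40.3, lies at −583.8 kb from the start. Of all Zbtb1 peaks, 25.2% overlap a Cbfa2t3 peak by at least 1 base.

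**Figure D5:**
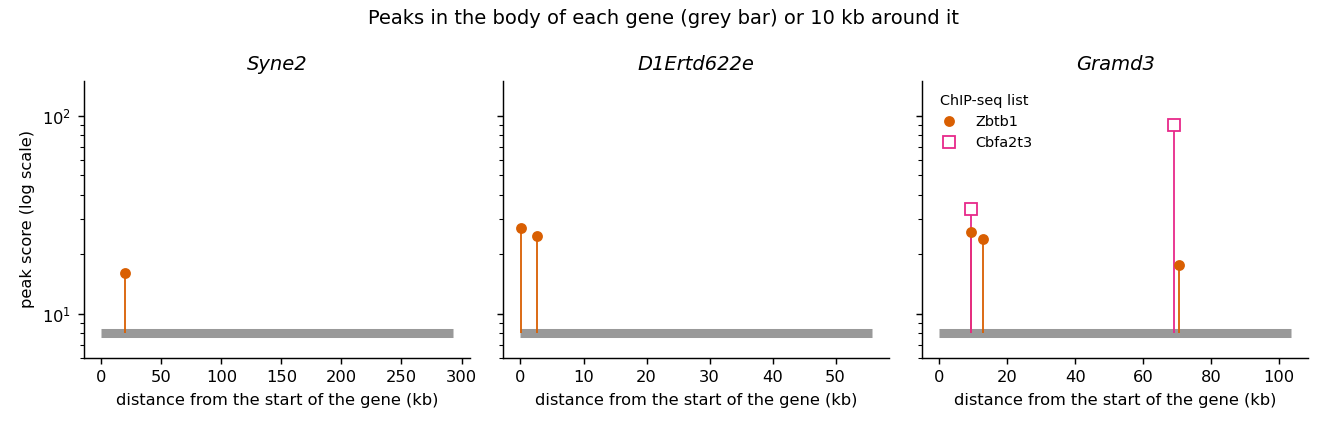
Score (log scale) of the Zbtb1 (filled circles) and Cbfa2t3 (open squares) ChIP-seq peaks in each gene or within 10 kb of it, by distance from the annotated start in kb, with the gene body as a grey bar. *Syne2* and *D1Ertd622e* have Zbtb1 peaks alone (16.1, 27.1 and 24.6), and *Gramd3* has both, up to a Cbfa2t3 score of 89.6.

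The 3 genes were also compared with each other across libraries. Over the 15 libraries, on log2(TPM + 1), Pearson's r was 0.65 for *Syne2* and *D1Ertd622e*, 0.70 for *Syne2* and *Gramd3* and 0.47 for *D1Ertd622e* and *Gramd3*, which the choice of the genes sets in part. Over the 12 libraries without sgZbtb1 the same values were −0.38, 0.47 and −0.09, so that *Syne2* and *Gramd3* still had a positive value. The libraries share the scaling to 1 total, and most *Syne2* and *D1Ertd622e* values among the 12 are of 3 reads or fewer. By the same measure over 15 libraries, genes that the deposited annotation lists as protein-coding among those most like *Syne2* were *Snhg11* (0.88), which RefSeq lists as a long noncoding RNA, *Actn1* (0.86), *Ccdc122* (0.85) and *Tspan3* (0.85). Over the 12 libraries without sgZbtb1 these 4 values were 0.22, 0.62, 0.44 and 0.24, so the sgZbtb1 columns, on which *Syne2* was chosen, set part of the likeness. *Tspan3*, a tetraspanin gene, had 83.0 ± 13.6 TPM in sgZbtb1 and 30.1 ± 4.95 TPM in sgControl (SD, n = 3 each). *Actn1*, which encodes the actin crosslinker alpha-actinin, had 88.3 ± 7.78 and 57.2 ± 16.0 TPM. *Arpp19* (0.89), *Glipr1* (0.88), *Tbc1d7* (0.84), *Psmd2* (0.84) and *Rps27l* (0.84) were most like *D1Ertd622e*, and *Hspa9* (0.82), *Tamm41* (0.82), *Prpf19* (0.81), *Ncbp2* (0.80) and *Cd34* (0.80) most like *Gramd3*. Without sgZbtb1 the values of the genes most like *D1Ertd622e* ranged from 0.45 (*Psmd2*) to 0.82 (*Rps27l*), and those for *Gramd3* from 0.70 (*Cd34*) to 0.74 (*Ncbp2*). *Cd34*, a marker of blood progenitors, had 369 ± 8.29 TPM in sgZbtb1 and 258 ± 47.7 TPM in sgControl (SD, n = 3 each). These lists describe likeness over the same 15 libraries and were not tested, and no gene stood on more than 1 of them.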

How the data were processed

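QuantSeq covered 15 libraries of the LP line, 3 in each of 5 groups, and ChIP-seq of Zbtb1 and Cbfa2t3 on 2 replicates each. Groups came from the sample labels. The genes and the gene lists were chosen with earlier results of these data known. For QuantSeq, the authors trimmed reads with fastp, mapped them to mm10 with STAR and counted them per gene; the values the authors deposited as TPM are in fact CPM: whole reads, within 0.1 read, were recovered for 100% of them at any gene length. A row without an identifier was left out. The authors called ChIP-seq peaks with HOMER on Bowtie alignments (version 1.1.1 in the submitters' processing notes) and deposited peaks found in both replicates, each with its peak score and its distance to the nearest start; the lists hold no replicate values or depth.

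Here, the 11554 genes whose mean exceeded 1 TPM were fitted with limma 3.58.1 in R 4.3.3 (trend, log2(TPM + 1), all libraries in 1 fit, Benjamini-Hochberg adjustment over all of them, called under 0.05). On simulated data the steps were tested before use. The genes named are *Syne2*, *D1Ertd622e*, *Gramd3*, *Zbtb1*, the tested genes within 500 kb, those of the 3 family lists and the 5 most correlated per gene. Some genes that this rule names are not reported here. Alternatives were a pseudocount of 0.1, other filters, 2 groups alone, a replicate block, median-of-ratios scaling, edgeR 4.0.16 and DESeq2 1.42.0 on recovered reads, and leaving out each library. Sequences were read from GRCm38 with pysam 0.24.0 in Python 3.11.15. p-values measure the spread between libraries of one line.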

Additional observations from a re-analysis of the deposited data

How the results depend on the processing

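In sgZbtb1, *Syne2*, *D1Ertd622e* and *Gramd3* kept their direction under every alternative that gave a value. These genes were chosen as high in sgZbtb1, so their choice set this direction and keeping it is no test. Their log2 fold changes ranged from 2.56 to 4.56, from 2.48 to 4.42 and from 0.88 to 1.87. A pseudocount of 0.1 gave 4.56 for *Syne2* and 4.42 for *D1Ertd622e*, DESeq2 gave 3.70 for *D1Ertd622e*, and the 9 sgLmo2, sgCbfa2t2 and sgCbfa2t3 libraries in place of sgControl, added after seeing the data, gave 0.88 for *Gramd3*. A replicate block left the 3 values at 3.03, 2.87 and 1.62. It cannot move them, because every group holds the same replicate numbers. Of the 148 tests on these genes, the 3 lists and the neighbours the block changed 1 call, *Gramd1b* in sgCbfa2t2 (adjusted p = 0.0499 in limma, against 0.107 without it). The same replicate numbers did not pair the libraries, since deviations of same-numbered libraries had a mean correlation of 0.0279 (−0.007 to 0.066), so the block is given as a setting only. The block moved the count of all genes called in sgZbtb1 from 554 to 709, and all genes above 0 gave 330, and leaving out 1 library gave 306 to 459.

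No difference of the 3 genes between the other groups was called under any alternative that gave an adjusted p, and several turned sign. Leaving out 1 library at a time, *Syne2* ranged from −0.06 to 1.02 in sgLmo2, from −0.89 to 0.20 in sgCbfa2t2 and from −0.95 to 0.13 in sgCbfa2t3 against sgControl, and from −0.16 to 0.53 in sgCbfa2t2 against sgCbfa2t3, which edgeR gave as −0.15 and DESeq2 as −0.17. *D1Ertd622e* ranged from −0.19 to 0.71 in sgLmo2, from −0.022 to 1.04 in sgCbfa2t2 and from −0.51 to 0.35 in sgCbfa2t3 against sgControl, from −0.79 to 0.27 in sgLmo2 against sgCbfa2t2 (0.22 with a pseudocount of 0.1) and from −0.076 to 0.73 in sgLmo2 against sgCbfa2t3. *Gramd3* ranged from −0.46 to 0.55 in sgLmo2 against sgCbfa2t2 and from −0.16 to 0.85 in sgLmo2 against sgCbfa2t3. The cause of these reversals was not tested. With a mean above 10 TPM over the compared libraries, none of the 3 genes was left in the fit, and DESeq2 gave no adjusted p for 11 of these 18 differences.

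Of genes within 500 kb, 1 was called in sgZbtb1, and 2 with all genes above 0 (*Zbtb1* and *Gm47690*) or with the 9 other libraries (*Zbtb1* and *Mthfd1*), and within 1 Mb it was 1 of 22. Of GRAM domain genes 1 was called, 1 to 2 when a library was left out (2 without sgZbtb1 replicate 1) and 0 with the 9 other libraries. The counts of the LINC complex and UNC119 lists were 1 and 0 under every alternative. Zbtb1 peaks numbered 3 by symbol, 0 with a score of at least 30, 6 within the genes or 10 kb around them and 6 by symbol or transcript, the last added after seeing the data, and Cbfa2t3 peaks 1, 1, 2 and 3. *Syne2* and *D1Ertd622e* are limited by depth, since 3 reads are the floor and most libraries outside sgZbtb1 were at or under it.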
